A study of Mus musculus with 20 samples.

Results

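The acute-phase protein genes described here were Saa1, Saa2, Saa3, Lbp, Hp, Hpx, Orm1, Orm2, Crp and Apcs, picked by name because their plasma proteins belong to the innate acute-phase response. They are 10 of the 31093 gene names carried by non-control probes of the Agilent mouse arrays, and each had 1 probe. Whole blood of 20 male mice, 8 to 10 weeks old, was drawn by cardiac puncture into PAXgene RNA stabilizer, freed of most globin RNA, labelled with Cy3 and hybridized, listed as 1 mouse per array. The mice carried the Il10 deletion of B6.129P2-Il10tm1Cgn/J (Il10-/-) or were wild-type (WT) C57BL/6 littermates from crosses between heterozygotes, and each genotype received 7 Gy of X-rays to the whole body or a sham exposure of 0 Gy, 24 h before blood was taken. Each of the 4 groups had 5 arrays, numbered as replicates 1 to 5, and each of the 5 slides, scanned once, held 1 array of every group. Values are log2 signals relative to the median of their array, so that 1 unit is a factor of 2.

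Acute-phase proteins are plasma proteins whose concentration changes within hours of infection, injury or tissue damage. Hepatocytes make most of them, under the control of interleukin-6 through STAT3 and of interleukin-1 and tumour necrosis factor through NF-kB and C/EBP factors, while macrophages and other cells outside the liver make some, such as serum amyloid A3. Interleukin-10 restrains the macrophage cytokines that drive the response, and albumin, the main plasma protein made by hepatocytes, is a negative acute-phase protein whose synthesis falls while the others rise.

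The genotype label was read on the Il10 probe (chr1:132920943-132921002, mm9, plus strand), which targets the cytokine gene that the deletion disrupts. Its log2 signal was -1.54 ± 0.45 (SD, n = 5) in unirradiated and -1.85 ± 0.61 in irradiated mice labelled WT, which cleared the well-above-background mark of the extraction software on 0 of 10 arrays. In mice labelled Il10-/- it was 2.75 ± 0.31 without radiation and 2.71 ± 0.62 after it, and 10 of 10 arrays cleared the mark. Il10 was thus higher under the deletion label, where a loss of the probed transcript would give a lower signal. Whether the probe lies in the altered stretch of the gene was not determined, so the directions below rest on the labels, and the groups are called by them. Of 12 neutrophil markers, 9 were called higher under the Il10-/- label without radiation, as given below.

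Blood cell transcripts were present on every array, as the tissue label states. Neutrophil markers averaged between 4.34 and 9.12 over the 20 arrays, with S100a9 the brightest, and platelet markers averaged between 7.72 and 11.67. Between 34.6% and 57.8% of spots were well above background on 19 arrays, and 29.9% on replicate 5 of the unirradiated WT group. Replicates 1 and 2 of a group differed less from each other than any other pair of the same group: the robust SD of their difference over features lay between 0.230 and 0.336, and that of the remaining 36 pairs between 0.407 and 1.39. Whether they came from separate mice was not determined; they were counted so, as listed, which makes n = 5 per group, or 4 if they did not, and the fits with both averaged to 1 sample are given where they change a call.

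Transcripts of liver cells differed widely between arrays of the same group, which matters here because hepatocytes make most of the proteins. Albumin (Alb, probe at chr5:90901598-90901657, mm9, plus strand) was measured on the same arrays as the reference for them. In unirradiated WT mice its log2 signal was 2.30, 2.40, 0.04, -1.02 and -1.83 in replicates 1 to 5, and in irradiated WT mice it was 13.17, 13.42, 10.22, 3.31 and 6.91. In mice labelled Il10-/- it was 3.16, 3.43, 9.98, 11.56 and 2.53 without radiation and 11.48, 11.60, 1.83, 9.68 and 6.88 after it. So 2 unirradiated arrays of the Il10-/- label, replicates 3 and 4, had more Alb signal than 5 of the 10 irradiated arrays, and 1 irradiated array, replicate 3, had less than all 5 unirradiated ones of that label. The mean of 25 hepatocyte markers moved the same way, from 1.07 on replicate 5 to 8.58 on replicate 4 of the unirradiated mice labelled Il10-/-, and from 1.53 on replicate 3 to 8.58 on replicate 2 of the irradiated ones. In WT mice that mean ran from -0.09 to 1.27 without radiation and from 1.70 to 10.34 after it, and between 6 and 25 of the 25 markers were well above background. Averaged over all arrays, Apoa2 was the brightest marker. In whole blood, fewer cells of a type and less RNA per cell cannot be told apart, and where the liver transcripts in these samples came from was not tested.

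The 8 tested members had the same order of group means, lowest in unirradiated WT mice, then unirradiated mice labelled Il10-/-, then irradiated mice labelled Il10-/-, and highest in irradiated WT mice. They did so with signals not well above background set to the background level of their array too, a treatment chosen after the values had been seen, as 9.36% of 18581 features did (11.1% by signal), and so did Alb. Of the 8 members, 8 kept that order when arrays were scaled by the 75th percentile, to a reference array or by quantile normalization, 7 did with normexp background correction or with replicates 1 and 2 averaged (Hp did not), and 5 did in the authors' table of processed values, where Saa2, Orm1 and Hpx did not. Of neighbours in the order, the unirradiated groups were called different in 5 of the 8 tested members (0.845% of features), while Saa1, whose arrays did not overlap, Saa3 and Orm1 missed the threshold; the groups labelled Il10-/- were called different in Saa1, Saa3 and Lbp (9.15%), and the irradiated groups in 0 members (limma; 0.00538% of features, and 0 members at an unadjusted p below 0.05). A feature was tested if its spot was an outlier or not significantly above background on fewer than 25% of arrays and lay 1.5-fold or more from its median on at least 20%, which 8 members did. Crp and Apcs did not, and Saa2, Orm1, Hpx and Orm2 passed through groups in which they were high.

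**Figure D1:**
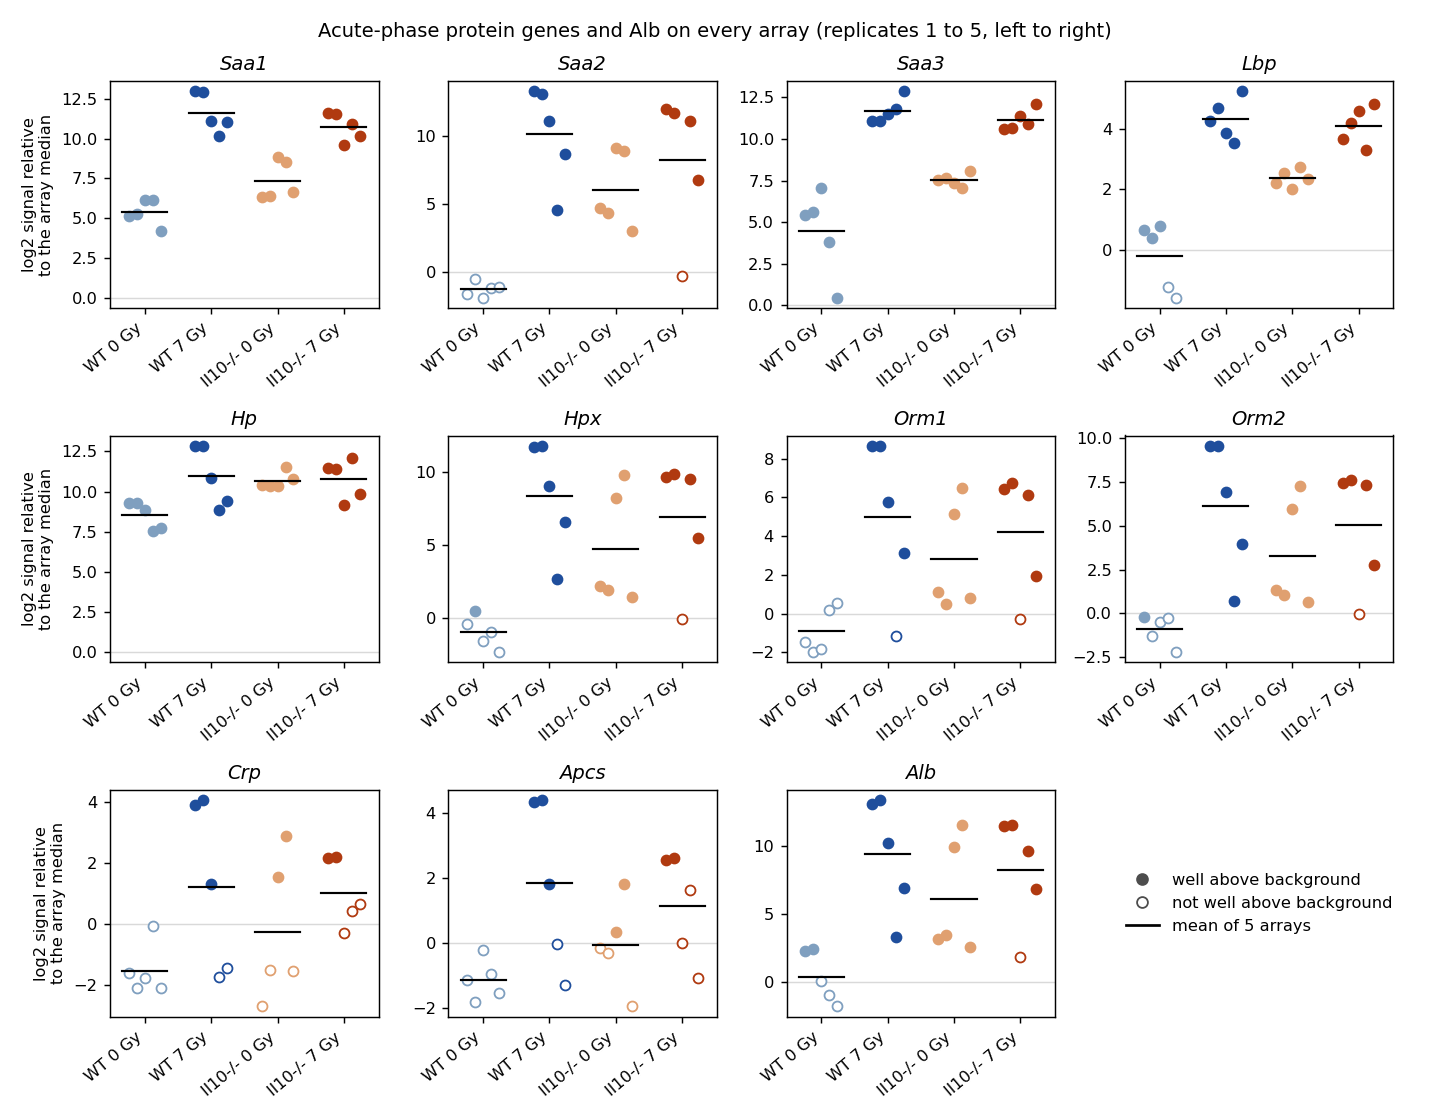
Log2 signal relative to the array median (vertical axis) of the 10 members and Alb on each of 20 arrays, by group, with filled points well above background, open points not, and a line at the mean of 5 arrays. Saa3 lay between 10.62 and 12.87 on all 10 irradiated arrays, while Saa2 ran from -0.32 to 13.33 on the same arrays.

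The serum amyloid A genes encode apolipoproteins of high-density lipoprotein that attract leukocytes: Saa1 and Saa2 are the liver's main acute-phase forms, and Saa3 is also made by macrophages and fat cells. All 3 lie on chromosome 7, with probes at chr7:53996070-53996129 on the minus strand for Saa1, chr7:54009622-54009681 on the plus strand for Saa2 and chr7:53970389-53970448 on the minus strand for Saa3 (mm9). Their promoters are shown because Saa1 and Saa2, near copies of each other, varied differently between arrays. The 250 bases before each start, from RefSeq on GRCm38.p6, come from chr7:46742981-46743230 on the minus strand for Saa1, chr7:46751583-46751832 on the plus strand for Saa2 and chr7:46715677-46715926 on the minus strand for Saa3. Capitals mark matches to the C/EBP pattern TTNNGNAAT or the NF-kB pattern of GGG, any 5 bases and CC, searched on both strands.
Saa1 promoter: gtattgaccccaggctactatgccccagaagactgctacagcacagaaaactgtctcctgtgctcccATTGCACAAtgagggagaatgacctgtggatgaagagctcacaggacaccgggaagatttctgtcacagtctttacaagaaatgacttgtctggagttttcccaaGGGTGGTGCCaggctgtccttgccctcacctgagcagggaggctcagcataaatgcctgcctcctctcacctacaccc
Saa2 promoter: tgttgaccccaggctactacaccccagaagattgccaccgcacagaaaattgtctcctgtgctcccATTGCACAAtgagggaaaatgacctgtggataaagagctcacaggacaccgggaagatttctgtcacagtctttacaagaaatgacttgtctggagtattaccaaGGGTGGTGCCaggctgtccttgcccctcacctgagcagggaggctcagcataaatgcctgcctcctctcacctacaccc
Saa3 promoter: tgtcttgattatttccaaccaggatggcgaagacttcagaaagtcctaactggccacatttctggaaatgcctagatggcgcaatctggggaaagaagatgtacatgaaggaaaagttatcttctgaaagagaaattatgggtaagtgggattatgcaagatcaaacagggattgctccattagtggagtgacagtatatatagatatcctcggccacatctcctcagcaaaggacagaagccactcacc

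Saa1 and Saa2 were identical in 238 of 251 aligned columns of these promoters (94.8%), and both held the same C/EBP match, ATTGCACAA, and the same NF-kB match, GGGTGGTGCC. Saa3 was identical to Saa1 in 48.2% of aligned columns, where Saa1 and the Alb promoter shared 44.6%, and held neither pattern in this window. Promoters of 7 of the 10 members were in the RefSeq table (Orm1, Hp and Lbp were not in it), counted over 250 bases before to 50 bases after the start. The C/EBP pattern was in 4 of the 7 (Saa1, Saa2, Orm2 and Crp) and in 11.5% of 32851 promoters of the same length, and the NF-kB pattern in 3 (Saa1, Saa2 and Crp) and in 50.8%. The STAT3 pattern TTCNNNGAA was in Apcs and in 8.30% of promoters, and the HNF1 pattern of GTTAAT, any 2 bases and TTAAC in 0 of the 7 and in 0.0396%. A match describes letters in a window and is no measure of binding.

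Saa3 was high on every irradiated array. In unirradiated WT mice its log2 signal was 5.42, 5.64, 7.07, 3.83 and 0.46 in replicates 1 to 5, lowest on replicate 5, the array with the fewest spots well above background. In irradiated WT mice it was 11.10, 11.06, 11.47, 11.81 and 12.87. Unirradiated mice labelled Il10-/- had 7.56, 7.67, 7.34, 7.06 and 8.09, and irradiated ones 10.62, 10.64, 11.41, 10.91 and 12.10. No irradiated array overlapped an unirradiated one of either label, and replicate 5, whose Alb signal was among the lower ones, had the highest Saa3 signal of both irradiated groups.

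Saa1 was well above background on 20 of 20 arrays. Its log2 signal was 5.12, 5.27, 6.14, 6.11 and 4.21 in unirradiated and 12.97, 12.90, 11.10, 10.16 and 11.04 in irradiated WT mice. Among mice labelled Il10-/- it was 6.32, 6.37, 8.84, 8.49 and 6.66 without radiation and 11.59, 11.52, 9.58, 10.91 and 10.13 after it. The irradiated arrays lay above all unirradiated ones under both labels, and unirradiated arrays of the Il10-/- label lay above those of WT mice. Replicates 3 and 4 of the unirradiated Il10-/- label, which had the most Alb there, also had the most Saa1, by 1.83 or more over the other arrays.

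Saa2 had the widest range of the family. In unirradiated WT mice it was well above background on 0 of 5 arrays, with log2 signals of -1.66, -0.51, -1.90, -1.16 and -1.10. After radiation WT mice had 13.33, 13.10, 11.11, 4.56 and 8.68. Mice labelled Il10-/- had 4.69, 4.37, 9.12, 8.90 and 2.99 without radiation and 12.03, 11.70, -0.32, 11.11 and 6.78 after it. Replicate 3 of the irradiated Il10-/- label, the array with the least Alb of its group, was the 1 irradiated array on which Saa2 was not well above background, while Saa1 there was 9.58 and Saa3 11.41. Whether the Saa1 and Saa2 probes, or those of Orm1 and Orm2, also bind the transcript of the neighbouring copy was not tested.

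Lbp, the plasma protein that hands bacterial lipopolysaccharide to Cd14 and the Tlr4 receptor, rose with radiation on every slide under both labels, as Saa3 did. Its log2 signal was 0.65, 0.40, 0.80, -1.25 and -1.58 in unirradiated WT mice, well above background on 3 of 5 arrays, and 4.28, 4.71, 3.88, 3.54 and 5.26 in irradiated ones. Mice labelled Il10-/- had 2.21, 2.54, 2.01, 2.75 and 2.36 without radiation and 3.66, 4.19, 4.61, 3.30 and 4.84 after it. The 4 groups fell into 3 levels that did not overlap: unirradiated WT mice lowest, unirradiated mice labelled Il10-/- next, and irradiated mice of both labels highest.

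Hp encodes haptoglobin, which captures free haemoglobin, and Hpx encodes hemopexin, which captures free heme. Their probes were at chr8:112099045-112099104 and chr7:112740304-112740363, both on the minus strand of mm9. Hp was bright without radiation: 9.28, 9.25, 8.86, 7.52 and 7.74 in WT mice, and 10.42, 10.35, 10.34, 11.54 and 10.79 in mice labelled Il10-/-. These 2 groups did not overlap. After radiation Hp was 12.81, 12.85, 10.86, 8.85 and 9.43 in WT mice, which overlapped the unirradiated ones, and 11.48, 11.43, 9.19, 12.08 and 9.84 in mice labelled Il10-/-, both above and below their unirradiated arrays. Hpx was well above background on 1 of 5 unirradiated WT arrays, with log2 signals from -2.36 to 0.44, and reached 11.76, 11.82, 9.08, 2.68 and 6.60 after radiation. Under the Il10-/- label Hpx was 2.15, 1.91, 8.26, 9.78 and 1.42 without radiation and 9.66, 9.87, -0.08, 9.55 and 5.51 after it. Hpx was high on replicates 3 and 4 and low on the other 3 arrays of the unirradiated Il10-/- label, and low on replicate 3 of the irradiated one, as Alb was; Hp was lowest on that replicate 3 too.

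Orm1 and Orm2 (Orm2 probe at chr4:63024979-63025038, mm9, plus strand) encode orosomucoids, acidic glycoproteins that carry small molecules in plasma. Orm1 was well above background on 0 of 5 unirradiated WT arrays and Orm2 on 1 of 5, with log2 signals from -1.98 to 0.53 and from -2.21 to -0.20. In irradiated WT mice Orm2 was 9.56, 9.58, 6.96, 0.69 and 3.96 in replicates 1 to 5. Orm1 on these arrays was 8.67, 8.64, 5.74, -1.15 and 3.11, so both were lowest on replicate 4, which had the least Alb. In unirradiated mice labelled Il10-/- Orm2 was 1.32, 1.06, 5.98, 7.27 and 0.64, and Orm1 ran from 0.49 to 6.48, with both highest on replicates 3 and 4. In irradiated ones Orm2 was 7.47, 7.63, -0.04, 7.35 and 2.74, Orm1 ran from -0.28 to 6.73, and both were lowest on replicate 3.

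Crp and Apcs encode the short pentraxins, C-reactive protein and serum amyloid P, which bind phosphocholine and cell debris and start complement, and in mice Apcs is the more inducible of the pair. Both probes lie on chromosome 1, Crp at chr1:174629343-174629402 on the plus strand and Apcs at chr1:174824959-174825018 on the minus strand (mm9). Each was well above background on 7 of 20 arrays: 0 of 5 unirradiated and 3 of 5 irradiated WT arrays, and 2 of 5 arrays in each group labelled Il10-/-. In irradiated WT mice Crp was 3.92, 4.06, 1.29, -1.74 and -1.47, and Apcs was 4.34, 4.38, 1.81, -0.02 and -1.29. The 3 arrays above background there, replicates 1 to 3, were those with the most Alb. Against the background level of the unirradiated WT arrays, the irradiated WT mean was at least 2.50-fold higher for Crp and 3.87-fold higher for Apcs, but neither passed the filters and neither was tested.

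The difference between genotypes without radiation asks what the labelled loss of Il10 goes with at rest. Saa2, Lbp, Hp, Hpx and Orm2 were higher in unirradiated mice labelled Il10-/- than in unirradiated WT mice. Hp was higher by 2.16 ± 0.44 (SE, n = 5; limma adjusted p = 0.0348), 4.46-fold, and Lbp, measured on 3 of 5 WT arrays, by at least 3.79-fold with the other 2 set to background (limma adjusted p = 0.0207), on 5 of 5 slides each. Saa2 was at least 69.8-fold higher, counted from the background level of the WT arrays, all 5 of which were at it (limma adjusted p = 0.000704). Its p rests on background signals on the WT side, and Saa2 passed the filters through groups in which it was high. Hpx and Orm2 were measured on 1 of 5 WT arrays, and with the other 4 set to background Hpx was at least 24.4-fold higher (limma adjusted p = 0.0517) and Orm2 at least 9.49-fold (0.0828), with the highest values on replicates 3 and 4. Their p-values rest on background signals of those 4 WT arrays, and both passed the filters through groups in which they were high. Alb, measured on 2 of 5 WT arrays, was called higher too, at least 34.3-fold (limma adjusted p = 0.0877), a call lost in 5 of 10 fits without 1 array (adjusted p of 0.120 to 0.343) and with each other scaling, normexp correction, the authors' table or all 4 groups in 1 fit. Label and amount of liver transcript thus may overlap in Saa2, Lbp, Hp, Hpx and Orm2, and their parts cannot be told apart. Saa1 (1.96 ± 0.54, limma adjusted p = 0.141), Saa3 (3.06 ± 0.82, 0.127) and Orm1 (at least 6.68-fold, 0.105) did not pass, although Saa1 and Saa3 were higher on 5 of 5 slides.

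A call at this contrast needed p below 0.001 in the limma fit of its 10 arrays and a Benjamini-Hochberg adjusted p below 0.10, which 5 of the 8 tested members met, Saa2 among them against a WT level that is a bound, where 0.845% of 18581 features did. In 5 members (Saa1, Saa2, Hp, Hpx and Lbp) all 5 arrays of the Il10-/- label lay above all 5 WT arrays with values at background set to its level, as in 3.49% of features (3.98% by signal). With such values at that level the median difference was 2.90 over the 8 tested members and 0.20 over all features; by signal the latter was 0.36, and became -0.07 with scaling to the 75th percentile and 0.53 with normexp correction. With normexp correction 0 members and 0 features were called (limma; 80 of 11432 features had an unadjusted p below 0.05), 2 were called (Hp and Lbp) in the values the authors deposited, 3 (Saa2, Saa3 and Lbp) with all 4 groups in 1 fit, and 8 with slide as a replicate block. Without replicate 4 of the unirradiated WT group 2 members were called (Saa2 and Lbp), without replicate 5 of that group 3, and without replicate 3 of the Il10-/- label 3. The difference of Saa3 ran from 2.05 to 3.71 without 1 array. By signal those of Saa2, Hpx and Orm2 ran from 6.51 to 8.04, from 4.43 to 6.52 and from 3.15 to 4.81, and are not read as sizes. Orm2 lost its call without replicate 2, 3, 4 or 5 of the WT group or replicate 3 or 4 of the Il10-/- label, Hpx without WT replicate 4 or 5 or Il10-/- replicate 3 and Hp without WT replicate 4 (1.91), while Saa3 gained one without WT replicate 3 (3.71) and Orm1 without Il10-/- replicate 1, 2 or 5 or with replicates 1 and 2 averaged. Neutrophil markers moved with these members: 9 of 12 were called higher, their mean ran from 4.34 to 5.81 on WT and from 6.91 to 9.12 on Il10-/- arrays, their log2 summed signal from 11.61 to 13.02 and from 13.47 to 14.97, and 9 to 11 of 12 and 12 of 12 were well above background; their part in the result was not tested.

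The radiation response of WT mice raised 7 of the 8 tested members, Saa2 and Orm1 among them against an unirradiated level that is a bound. Both passed the filters through groups in which they were high, and their p-values rest on background signals of the unirradiated arrays. Saa1 rose by 6.26 ± 0.57 (SE, n = 5; limma adjusted p = 1.61e-05), 76.7-fold, Saa3 by 7.18 ± 0.89 (0.000211), 145-fold, on 5 of 5 slides each. The difference of Saa3 lay between 6.17 and 7.82 without 1 array, lowest without replicate 5 of the unirradiated group. Lbp, measured on 3 of 5 unirradiated arrays, was at least 14.8-fold higher with the other 2 set to background (limma adjusted p = 0.000111), on 5 of 5 slides. Saa2 was at least 1230-fold higher than the background level of the unirradiated arrays (limma adjusted p = 3.71e-05). Hpx and Orm2, measured on 1 of 5 unirradiated arrays, were at least 314-fold (limma adjusted p = 0.000462) and 70.6-fold (0.00228) higher with the other 4 set to background, and both had a wide spread among irradiated arrays. Their p-values rest on background signals of those 4 arrays. Hpx and Orm2 too passed the filters through groups in which they were high. Orm1 was at least 30.6-fold higher (limma adjusted p = 0.0110), and on slide 4 neither of its 2 arrays was well above background. By signal, the differences without 1 array ran from 10.63 to 12.82 for Saa2 and from 8.53 to 10.81 for Hpx. Those of Orm2 ran from 6.19 to 8.41 and those of Orm1 from 5.00 to 7.45. With unirradiated signals at background, these ranges are not read as sizes. Hp was 2.43 ± 0.72 higher on average and on 5 of 5 slides, but missed the threshold (limma adjusted p = 0.0324).

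Of all 18581 features, 4.48% were called higher in irradiated than in unirradiated WT mice, and 6.80% were called in either direction. The arrays did not overlap for 5 members (Saa1, Saa2, Saa3, Hpx and Lbp) with values at background set to its level, as in 10.65% of features (11.9% by signal). The median difference was then 6.20 over the 8 tested members and -0.13 over all features, which by signal was -0.02, or -0.28 with scaling to the 75th percentile and 0.65 with normexp correction. In the authors' table Saa1, Saa2, Saa3 and Lbp were called and Orm1, Orm2 and Hpx were not, normexp correction ended the calls of Orm1 and Orm2, and Orm1 also lost its call with the 75th percentile, the reference array, quantile normalization or all 4 groups in 1 fit. Orm1 held its call in 3 of 10 fits that left out 1 array: it lost it without any 1 of the unirradiated WT arrays and without replicate 1 or replicate 3 of the irradiated ones. With replicates 1 and 2 averaged Orm1 was not called either (limma adjusted p = 0.0344); Orm2 lost its call without replicate 5 of the unirradiated group, and Hp gained one without replicate 4 of the irradiated group (2.96) or with slide as a replicate block. B cell markers were called lower for 6 of 7 and erythroid markers for 3 of 6, where 2.32% of features were. B cell markers averaged from 5.06 to 6.49 on unirradiated and from 2.71 to 3.59 on irradiated arrays, and erythroid ones from 6.38 to 8.30 and from 5.02 to 6.49. Platelet markers, of which 0 of 6 were called, averaged from 7.72 to 9.33 and from 9.65 to 10.74. Of 8 monocyte markers 2 were called higher and 1 lower. The part of these markers in the result was not tested.

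In mice labelled Il10-/- the response to radiation was called in 3 members. Saa3 rose by 3.59 ± 0.32 (SE, n = 5; limma adjusted p = 2.71e-05), and by 3.05, 2.97, 4.07, 3.85 and 4.00 on slides 1 to 5. Saa1 rose by 3.41 ± 0.57 (limma adjusted p = 0.00200), 10.6-fold, and by 0.74 to 5.27 on 5 of 5 slides. Lbp rose by 1.75 ± 0.31 (limma adjusted p = 0.00265), 3.36-fold, and by 0.56 to 2.60 on 5 of 5 slides. The other tested members were not called: Saa2 2.24 ± 2.15, Orm2 1.77 ± 1.70, Orm1 1.39 ± 1.53 and Hp 0.12 ± 0.51, and Hpx with an interval of -2.41 to 6.80, with limma adjusted p between 0.486 and 0.888. Saa2, Orm1, Orm2 and Hpx were measured on 4 of 5 irradiated arrays. With the remaining array at its background level their differences were 2.63, 1.77, 2.10 and 2.53. Without 1 array the differences by signal ran from 1.30 to 4.39, from 0.76 to 2.51, from 1.12 to 3.04 and from 1.38 to 3.94. For Saa2 the 95% interval ran from -2.42 to 6.91, so a change of several-fold in either direction was not detectable among these arrays.

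Those 3 members stood beside 3.28% of features called higher in the same mice, and 9.15% called in either direction. Their arrays did not overlap, as in 7.98% of features with values at background set to its level (6.12% by signal). With values at background set to its level the median difference was 2.32 over the 8 tested members and 0.19 over all features, which by signal was -0.10, or 0.15 with scaling to the reference array and -0.32 with normexp correction. All 3 were called in each of the 10 fits that left out 1 array. With slide as a replicate block Saa1 lost its call (adjusted p = 0.0161, limma), and with normexp correction 0 members and 0 features were called (limma; 436 of 11432 features had an unadjusted p below 0.05), with differences of 3.03 for Saa1, 3.19 for Saa3 and 0.72 for Lbp. In the same mice B cell markers were called lower for 6 of 7 and erythroid markers for 3 of 6, where 5.87% of features were, and heart muscle markers higher for 5 of 9. B cell markers averaged from 5.05 to 6.08 on unirradiated and from 2.27 to 2.82 on irradiated arrays, erythroid ones from 6.44 to 7.72 and from 4.96 to 6.09, and heart muscle ones from -1.01 to 2.09 and from 0.79 to 5.95; their part in the result was not tested.

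**Figure D2:**
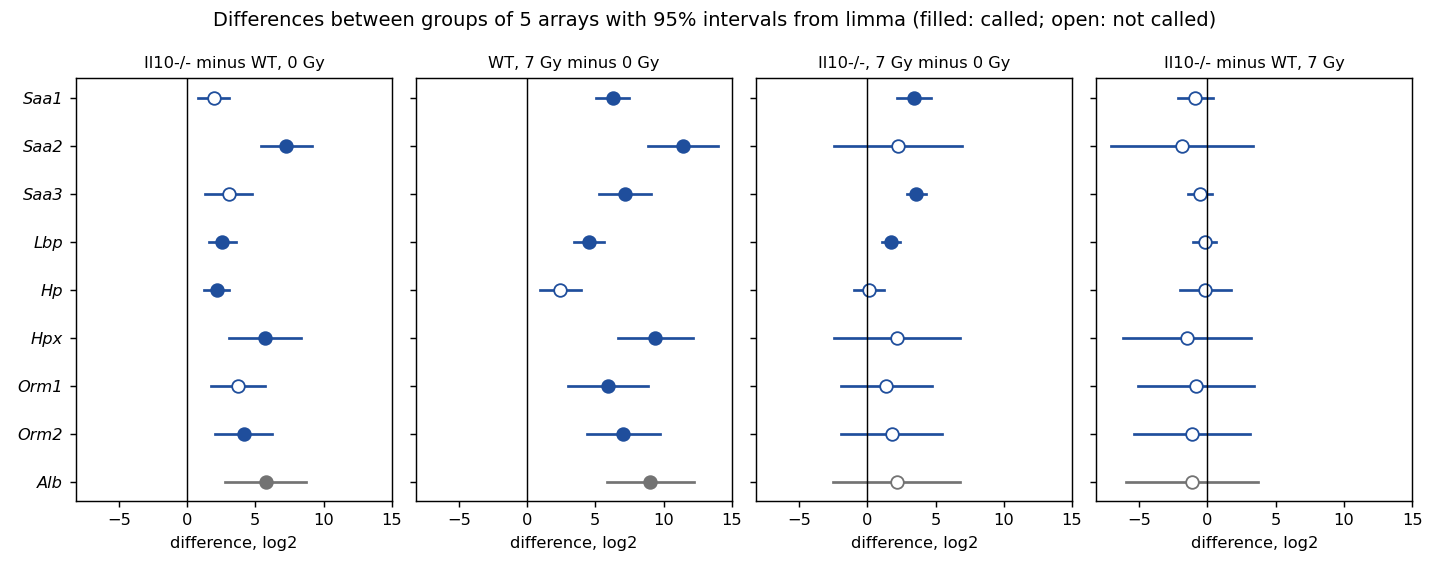
Difference in log2 signal with its 95% limma interval for the 8 tested members and Alb (horizontal axis: log2 difference) in 4 comparisons, filled where called. In irradiated mice labelled Il10-/- Saa3 was higher by 3.59 with an interval of 2.90 to 4.28, while the interval of Saa2 ran from -2.42 to 6.91.

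Between irradiated mice of the 2 labels no member was called. Saa1 differed by -0.89 ± 0.59, Saa3 by -0.53 ± 0.40 and Lbp by -0.21 ± 0.39, Il10-/- label minus WT, with limma adjusted p between 0.572 and 0.953 over the 8 tested members. Saa3 was lower on 5 of 5 slides, with differences from -0.90 to -0.07. The 95% interval of Saa3 ran from -1.40 to 0.35, and that of Saa2 from -7.10 to 3.30. Groups did not overlap in 0 members, and by signal in 2.25% of features higher and 0.716% lower under the Il10-/- label. With values at background set to its level the share higher was 3.00%. The limma fit called 0 of 8 members and 1 of 18581 features (0.00538%), with 2066 features and 0 members at an unadjusted p below 0.05. Leaving out replicate 3 of the irradiated Il10-/- label turned the difference of Saa2 to 0.25, Orm1 to 0.31, Orm2 to 0.15, Hp to 0.25 and Hpx to 0.26, and that of Alb to 0.51.

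Whether the radiation response itself differed between labels was tested as the interaction in 1 limma fit of all 20 arrays. The difference between the responses, Il10-/- label minus WT, was -3.59 ± 1.07 for Saa3, -2.85 ± 0.85 for Saa1 and -2.31 ± 0.96 for Hp, and -2.14 for Lbp with 2 of 5 unirradiated WT arrays set to background, but no feature passed (limma adjusted p = 0.689 for each). Without 1 array it ran from -4.23 to -2.58 for Saa3, from -3.22 to -2.48 for Saa1 and from -2.84 to -1.84 for Hp. Members at background on most unirradiated WT arrays are given no size here. The fit called 0 of 18581 features, 1300 of which had an unadjusted p below 0.05, 7 members among them. Of these 4, Hp and Lbp were called higher under that label without radiation, and 0 were called different after it. The larger number of calls in WT mice therefore does not show that the members responded differently there. The p-values measure the spread between arrays listed as individual mice, and the 4 comparisons share groups.

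**Figure D3:**
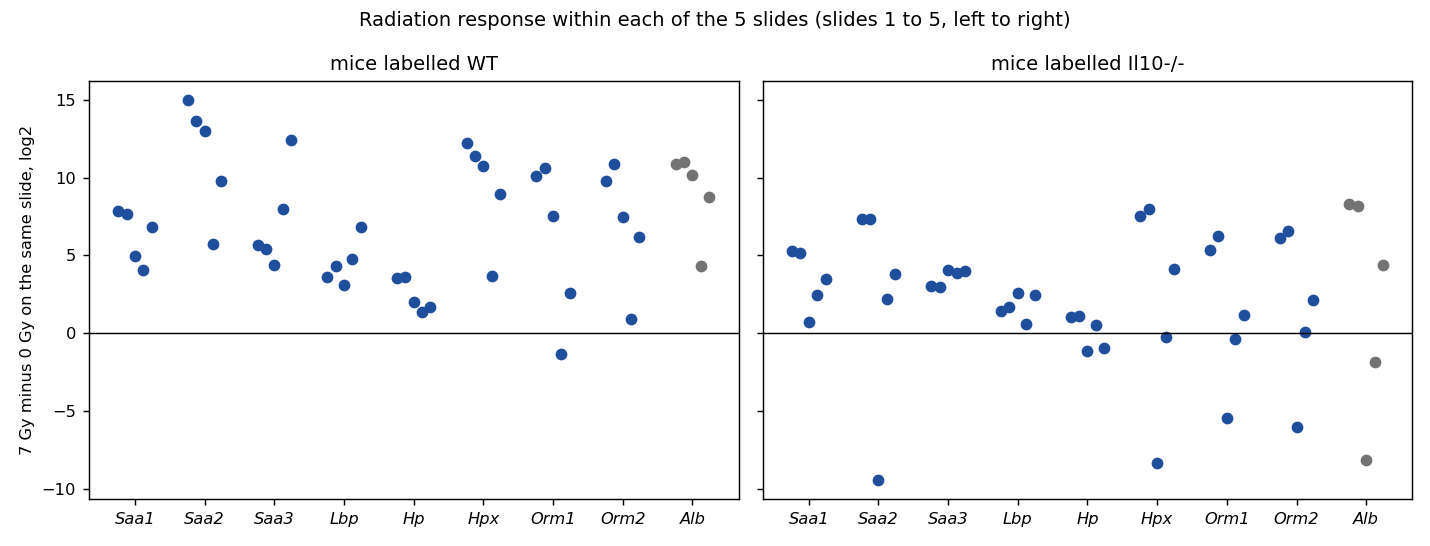
Irradiated minus unirradiated log2 signal within each of the 5 slides (points) for 8 members and Alb, in WT mice and in mice labelled Il10-/- (vertical axis: log2 difference, with a line at 0). On slide 3 of the Il10-/- panel Saa3 stood at 4.07 and Lbp at 2.60; Alb, Saa2, Hpx, Orm1 and Orm2 lay below 0 there, with an irradiated array not well above background.

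How far members varied with Alb between mice of the same group was described by a common slope within groups, a measure chosen after the values had been seen and given without a test. It covered the 15 arrays of the 3 groups in which Alb was well above background on at least 4 of 5 arrays, where the pooled SD of Alb was 4.23. Per unit of Alb, Hpx changed by 0.951, Saa2 by 0.905, Orm2 by 0.816 and Orm1 by 0.788, and their SD within groups, 4.05, 4.03, 3.50 and 3.42, became 0.54, 1.31, 0.60 and 0.79 once the slope was removed. Saa1 and Hp changed by 0.253 and 0.2499 per unit, and their SD went from 1.13 to 0.38 and from 1.32 to 0.82. Lbp had a slope of -0.0108 and Saa3 of -0.0983, with an SD of 0.56 and 0.60 before and 0.59 and 0.45 after. Without 1 array the slopes lay between 0.727 and 0.983 for the first 4 members, between 0.223 and 0.282 for Saa1 and Hp, and between -0.119 and 0.0101 for Lbp and Saa3. Over 5 other settings (all 4 groups, the hepatocyte mean for Alb, the 75th percentile, normexp correction, and replicates 1 and 2 averaged) they lay between 0.576 and 1.125, between 0.237 and 0.395, and between -0.125 and 0.0828, and Saa3 had a slope of 0.0216 with normexp correction. On replicate 3 of the irradiated Il10-/- label Alb and the first 4 members were not well above background, and without it the slopes were 0.909 for Hpx, 0.769 for Saa2, 0.826 for Orm2 and 0.819 for Orm1.

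**Figure D4:**
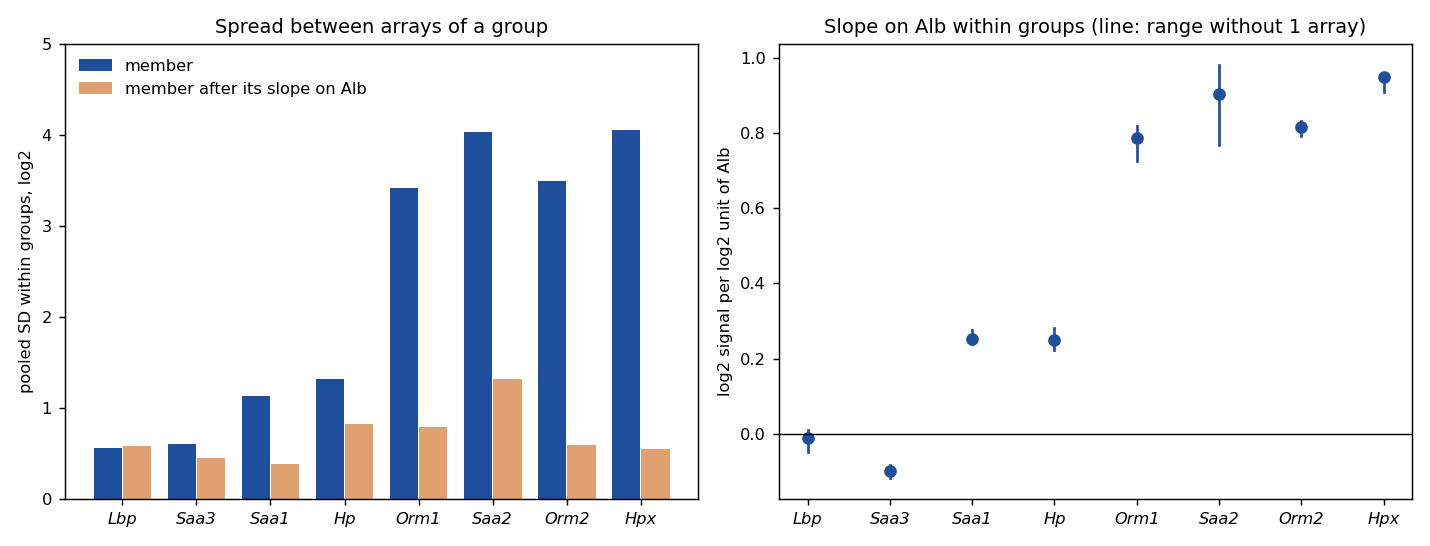
Left, pooled SD of log2 signal within 3 groups of 5 arrays for 8 members (vertical axis) before and after removal of the common slope on Alb. Right, that slope (vertical axis: log2 signal per log2 unit of Alb) with the range over fits without 1 array as a line. The SD of Hpx went from 4.05 to 0.54, and that of Lbp from 0.56 to 0.59.

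The array with the most Alb of a group can be set beside the one with the least. In irradiated WT mice these were replicates 2 and 4, which differed by 10.10 in Alb. There Hpx differed by 9.14, Orm2 by 8.89, Saa2 by 8.55 and Orm1, at background on replicate 4, by at least 8.45, Hp by 4.00 and Saa1 by 2.75, and Lbp by 1.18 and Saa3 by -0.75. In irradiated mice labelled Il10-/-, replicates 2 and 3 differed by at least 9.78 in Alb, 10.10 in Saa2 and 8.27 in Hpx, which were at background on replicate 3, and by 1.94 in Saa1, -0.42 in Lbp and -0.76 in Saa3. In unirradiated ones, replicates 4 and 5 differed by 9.03 in Alb, by 8.36 in Hpx and 5.91 in Saa2, and by 0.38 in Lbp and -1.04 in Saa3. Saa3 was thus a little lower, and Hpx far higher, on the array with the most Alb in these 3 groups. In unirradiated WT mice Alb was clear of background on 2 of 5 arrays, and replicates 2 and 5 differed by at least 2.74 in Alb and by 5.17 in Saa3.

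On slide 3 of mice labelled Il10-/- the members went different ways. The irradiated array lay below the unirradiated one by at least 8.15 in Alb, 7.52 in Saa2, 6.66 in Hpx, 4.38 in Orm2 and 3.56 in Orm1, all 5 of them not well above background on it. Saa3 differed by 4.07, Lbp by 2.60, Saa1 by 0.74 and Hp by -1.15 on the same pair of arrays. That irradiated array had 34.6% of spots well above background, the fewest of its group.

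**Figure D5:**
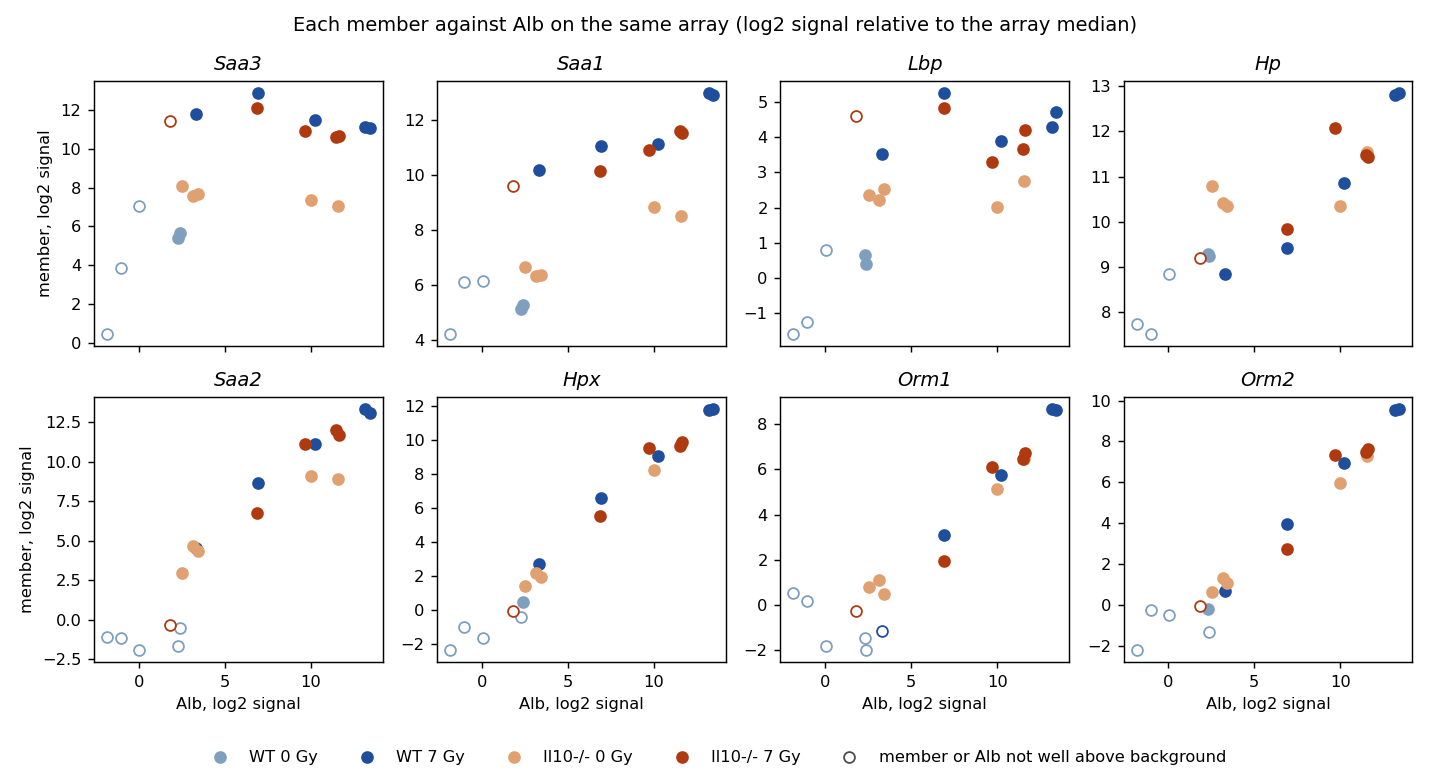
Log2 signal of 8 members (vertical axes) against log2 signal of Alb on the same array (horizontal axes), coloured by group, relative to the array median, with open points where the member or Alb was not well above background. Hpx lay along Alb over 20 arrays, of which 15 had Hpx and 16 had Alb well above background. Saa3 lay between 10.62 and 12.87 on irradiated arrays whose Alb signal ran from 1.83 to 13.42.

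With the Alb signal of each array as a covariate in the fit, the response of mice labelled Il10-/- kept Saa3 (3.78, limma adjusted p = 1.84e-06), Saa1 (2.88, 1.21e-05) and Lbp (1.84, 0.00128), and the other 5 differences lay between -0.23 and 0.21; 4.43% of features were called higher. In WT mice Saa1, Saa2 and Saa3 were called with the covariate, where 0.161% of features were called higher, and in the comparison of unirradiated mice Saa2 was, where 0.743% were. Both comparisons share the unirradiated WT arrays, of which 2 of 5 measured Alb, so no sizes are read from them. Alb itself was at least 332-fold higher in irradiated than in unirradiated WT mice (limma adjusted p = 0.00147), so covariate and dose overlapped there, as covariate and label may in unirradiated mice, and their parts cannot be told apart. Under the Il10-/- label Alb differed by 2.16 ± 2.14 between doses (limma adjusted p = 0.501), and by 1.26 to 3.78 without 1 array.

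Member minus Alb was also compared between groups with 2-sided exact permutation tests over the 252 splits of 5 against 5, and no result is drawn from them. For Saa1, Saa3, Hp and Lbp the subtraction added the spread of Alb (pooled SD 3.78 within the 4 groups) to a smaller one of their own (0.74 to 1.37), and Alb was not well above background on 3 unirradiated WT arrays and 1 irradiated array of the Il10-/- label.

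The features most like each member, by the SD of the difference over 20 arrays, are named with that SD. Saa2 was well above background on 14 of the 20, Orm1 on 13, Hpx and Orm2 on 15, Lbp on 18 and Alb on 16. Their SDs and order thus rest partly on background signals. Nearest to Hpx were Gc (0.67), Alb (0.70) and Serpina1d (0.75), to Saa2 Hpx (1.21), Alb (1.64) and Fgg (1.65), to Orm2 Ambp (0.67), Itih4 (0.72) and Adh1 (0.73), and to Orm1 Tfr2 (0.80), C8g (0.85) and Plg (0.87). Nearest to Saa3 were Marco (0.97), which encodes a scavenger receptor of macrophages, Cdkn1a (1.14), an inhibitor of the cell cycle, and Cd5l (1.30), a secreted scavenger protein. Lbp was nearest to Il18bp (0.51), Aspa (0.59) and Car6 (0.62), Saa1 to Gm4951 (0.80), Cfb (0.87) and C1ra (0.98), and Hp to Bnip3 (0.42), Alas1 (0.47) and C1rl (0.50).

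Among other acute-phase genes, 23 of 27 on the array were tested. In unirradiated mice labelled Il10-/- 7 were called higher, Cfb (3.09), C3 (2.93), Lcn2 (2.88), C4b (2.87), Lrg1 (2.28), Cd14 (2.23) and Steap4 (measured on 2 of 5 WT arrays, at least 4.46-fold), and 0 lower, where 0.845% of features were called. Lcn2 is also 1 of the neutrophil markers, 9 of 12 of which were called higher there. Cd14 is also a monocyte marker and stands among the genes of the cytokine signals below. In irradiated WT mice 14 rose, where 4.48% of features did, and 0 fell; among them were Serpina1a, Itih4, Fgg and Mbl2 (measured on 3, 2, 0 and 0 of 5 unirradiated arrays; at least 457-fold, 165-fold, 132-fold and 83.1-fold) and the complement genes Cfb (5.93), C4b (4.55) and C3 (4.32). In irradiated mice labelled Il10-/- Cfb (2.62), Mt1 (1.94) and C4b (1.83) rose, where 3.28% of features did, and 0 fell. With Alb as covariate 2, 1 and 4 of the 23 were called higher in these 3 comparisons.

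Of 9 tested negative acute-phase genes, 0 were called lower without radiation, in irradiated WT mice or in irradiated mice labelled Il10-/-. Of all features 0%, 2.32% and 5.87% were called lower there, so a count of 0 among 9 is near these shares. Called higher were 1 of the 9 without radiation (Alb), where 0.845% of features were, 7 in irradiated WT mice, where 4.48% were, and 0 in irradiated mice labelled Il10-/-, where 3.28% were. In irradiated WT mice Ahsg rose by 6.93 and Trf by 4.52. Alb, Apoc3, Rbp4, Serpinc1 and Serpina6, measured on 2, 2, 2, 2 and 0 of 5 unirradiated arrays, rose at least 332-fold, 109-fold, 107-fold, 72.0-fold and 15.3-fold. So in irradiated WT blood Alb and other liver transcripts whose proteins decrease in an acute-phase response were higher together with Saa2, Hpx and the orosomucoid genes. Hepatocyte markers, 7 of them also in the negative list, were called higher for 14 of 21 in irradiated WT mice, where 4.48% of features were, and for 0 of 21 in irradiated mice labelled Il10-/-, where 3.28% were, and heart muscle markers for 1 and 5 of 9; their part in the members' changes was not tested.

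Of 26 tested genes of the cytokine signals that drive the response, Cd14 (2.23), Il1rap (measured on 1 of 5 WT arrays, at least 2.63-fold) and Lifr (3 of 5, at least 3.09-fold) were called higher in unirradiated mice labelled Il10-/-, where 0.845% of features were, and Lifr (at least 6.12-fold), Cd14 (2.79), Cebpa (2.36) and Ly96 (1.96) in irradiated WT mice, where 4.48% were. Under the Il10-/- label 0 of 26 were called after radiation, where 3.28% of features were called higher (limma). Cd14 and Ly96 are partners of Tlr4, to which Lbp delivers lipopolysaccharide. Of 11 tested receptors and clearance genes, Fpr2 (2.36), a formyl peptide receptor that also binds serum amyloid A, was called without radiation, Marco (5.53) and Fcgr4 (2.18) in irradiated WT mice, and Marco (3.90) in irradiated mice labelled Il10-/-. Between irradiated mice of the 2 labels, and in the interaction, limma called 0 genes of these lists.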

How the data were processed

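The authors scanned 20 Agilent mouse arrays and extracted spot intensity with Feature Extraction (10.7 per the submitters' processing notes, 12.0.2.2 per the file headers), which gave background-subtracted processed signals; their deposited table holds log2 values. Here log2 processed signals were averaged over repeated spots, and the median of 39429 non-control probes was subtracted per array. A feature was kept if under 25% of arrays were outliers or not above background and 20% differed by 1.5-fold from its median, which left 18581 features of 15743 genes. Group pairs of 10 arrays were fitted with limma 3.58.1 (R 4.3.3, data.table in version 1.17.8) and called at p below 0.001 and adjusted p below 0.10; the interaction was fitted over 20 arrays. Alternatives covered scaling, background correction, filters, slide, replicates and Alb. Promoters were searched with Python 3.11.15 (biopython 1.88, pandas 2.3.3, numpy 2.4.6; figures with matplotlib 3.10.9). Members and lists were chosen with earlier results of these data known. Named genes were the 10 members, Alb, list genes called or with the 2 largest rises or falls, and the 3 features nearest each member. The number of arrays limits the precision.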

Additional observations from a re-analysis of the deposited data

Results flagged for a closer look

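In unirradiated WT mice Crp had 1 array apart from the others: replicate 4 stood at a log2 signal of -0.09 and the next array at -1.63, a gap that was 0.761 of the range of the 5 arrays. All 5 signals were near background, and this was the 1 case among 44 groups of 5 arrays examined for the members and Alb, where chance alone sets apart about 1 in 20 groups.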

How the results depend on the processing

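Members called in unirradiated mice, 5 of 8, became 3 with scaling to the 75th percentile or the reference array, with no filter, with all 4 groups in 1 fit or with adjusted p below 0.05 alone, 1 with quantile normalization or Alb as covariate, 0 with normexp correction, 2 in the authors' table and 8 with slide as a replicate block, and between 2 and 6 without 1 array; the cause was not tested. In irradiated WT mice 7 became 6 with the 75th percentile, the reference array, quantile normalization, all 4 groups in 1 fit or replicates 1 and 2 averaged, 5 with normexp correction, 4 in the authors' table, 3 with Alb as covariate and 8 with the replicate block (5 to 8 without 1 array), and under the Il10-/- label 3 became 2 with the replicate block and 0 with normexp correction (3 to 3 without 1 array). The count was 0 between irradiated labels and for the interaction under every alternative.

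Counts of members relative to Alb at exact p below 0.05, from which no result is drawn, became 2 in unirradiated mice with the hepatocyte mean (Hpx 2.204, reversed from -0.05) or with normexp correction (0 to 1 without 1 array). In WT mice 3 stayed 3 with the hepatocyte mean, with Hpx gained and Orm1 lost, and became 1 with replicates 1 and 2 averaged and 0 with the replicate block, where 5 slides allow no p below 0.0625 (1 to 3 without 1 array). Alb was not well above background on 3 of 5 unirradiated WT arrays, where 6 to 18 of 25 hepatocyte markers were above it; the cause was not tested.

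Direction turned for these differences. Alb as covariate gave Orm1 -0.54, Hp -1.34, C3 -1.14 and Mbl2 -0.12 in WT mice (not read as sizes or directions, since 2 of 5 unirradiated arrays measured Alb and 0 of 5 Orm1 and Mbl2), Orm1 -0.12 and Hp -0.23 under the Il10-/- label, Orm1 0.15 and Hp 0.23 between irradiated labels, and Orm1 0.31 and Orm2 0.035 for the interaction. The interaction values use the same unirradiated WT arrays, 1 of 5 of which measured Orm2, and are not read as sizes or directions either. Hp under the Il10-/- label was -0.16 with normexp correction and -0.12 with replicates 1 and 2 averaged. Between irradiated labels the authors' table gave Saa2 0.14, Orm1 0.20 and Hpx 0.15, and averaging gave Hp 0.15. Without 1 array, Hp ran from -0.20 to 0.52 under the Il10-/- label, and between irradiated labels Saa2 from -3.30 to 0.25, Orm1 from -2.34 to 0.31, Orm2 from -2.49 to 0.15, Hp from -0.68 to 0.32, Hpx from -2.91 to 0.26, Lbp from -0.41 to 0.017 and Alb from -2.63 to 0.51. None of these was called, and the cause was not tested.

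Of the other differences of members, 406 kept direction and side of the threshold, 45 lost and 7 gained a call; without 1 array 443 kept both, 18 lost and 5 gained a call. Features called higher in WT mice were 65.9% of calls, and 51.1%, 59.5%, 50.4%, 98.5% and 27.5% with the 75th percentile, the reference array, quantile normalization, normexp correction and Alb as covariate, and 44.1% to 70.7% without 1 array; under the Il10-/- label they were 35.8%, 28.0% to 43.6% without 1 array, and 50.4% with the reference array and 52.0% in the authors' table. In unirradiated WT mice signal at background limits Saa2, Orm1, Crp and Apcs (0 of 5 arrays measured), Hpx and Orm2 (1 of 5), Alb (2 of 5) and Lbp (3 of 5).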
